A study of Mus musculus with 8 samples.

Results

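The genes of the N-methyl-D-aspartate (NMDA) receptor subunits were followed through 8 spinal cord precipitates of ribosome-associated mRNA. The set was defined by symbol as Grin1, Grin2a, Grin2b, Grin2c, Grin2d, Grin3a and Grin3b, which is 7 of the 38924 genes in the deposited tables. All 7 passed the filter on low counts that left 15208 genes for testing, although Grin3b held at most 8 counts in any library without Cre and would not have passed on those libraries. The study used the RiboTag method, in which Cre recombinase adds an HA epitope to the ribosomal protein Rpl22, so that ribosomes of the Cre-expressing cells can be pulled down with an antibody against HA. Cre was driven from Chat, the gene of the acetylcholine-making enzyme, which in the cord is active in motor neurons and in cholinergic interneurons.

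Each of the 4 groups held 2 mice. All mice were of the B6.CgxB6.129 background and Rpl22 +/-, and the series describes them as Gars+/+, wild type at the glycyl-tRNA synthetase gene. The Cre uncrushed group (animals 3 and 10) and the no-Cre uncrushed group (animals 4 and 6) were 8 weeks old. The Cre crushed group (animals 35 and 52) was 18 and 9 weeks old, and the no-Cre crushed group (animals 51 and 58) was 9 weeks old. Crush was applied to the sciatic nerve on 1 side, and the whole cord was taken, so that the precipitates of crushed mice also held motor neurons whose axons were not injured. How long after crush the cords were taken is not stated in the labels. Crush cannot be told apart from age, nor from a number that all uncrushed titles share. In addition, the entries for genotype contradict the titles of Cre uncrushed mouse 3 and of mouse 4, no-Cre uncrushed. Groups follow the titles.

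NMDA receptors are glutamate-gated cation channels that also need glycine or D-serine as a co-agonist, that pass calcium and that are blocked by magnesium at resting potential. GluN1, the Grin1 product, is the obligatory subunit and carries the co-agonist site, whereas the GluN2 subunits (Grin2a to Grin2d) bind glutamate and set the speed and magnesium sensitivity of the channel. The GluN3 subunits (Grin3a and Grin3b) bind glycine and reduce calcium permeability, and Grin3b is known for its expression in somatic motor neurons.

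The libraries held between 4826979 and 11522721 expected counts. Levels are given as CPM, counts relative to a library total that is corrected for composition (TMM), on which 3 counts are worth between 0.19 and 1.17 CPM. The correction factor ran from 0.524 in no-Cre uncrushed animal 4 to 1.533 in no-Cre crushed animal 51. The deposited TPM values, scaled by the authors for length and depth, do not include it. The tissue and tag were checked on motor neuron markers, of which 7 of 8 were matched. Their summed level was 1920 to 2060 CPM in the Cre uncrushed and 1690 to 1850 CPM in the Cre crushed libraries. It was 117 to 163 CPM in the no-Cre uncrushed libraries, where Mnx1 was at 0, and 63.2 to 128 CPM in the no-Cre crushed libraries. The libraries labelled Cre uncrushed 3 and no-Cre uncrushed 4 thus had the motor neuron levels of their titles. No-Cre precipitates are not empty, and astrocyte and interneuron markers were higher in them. Summed astrocyte markers (6 genes) were at 190 to 207 CPM in Cre uncrushed, 342 to 488 CPM in Cre crushed and 1410 to 3060 CPM in no-Cre libraries, and summed interneuron markers (7 genes) were at 181 to 271 CPM with Cre and 466 to 661 CPM without.

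Compared per kilobase of gene length, Grin1 was the most abundant subunit message in every group and Grin2b the next. In Cre uncrushed libraries Grin1 stood at 49.2 ± 1.98 CPM per kb (SD, n = 2 mice, as for all levels below), Grin2b at 18.4 ± 4.53, Grin2a at 8.69 ± 0.24 and Grin3b at 8.14 ± 0.233 CPM per kb. Grin3a followed at 5.28 ± 0.509, Grin2d at 2.5 ± 0.495 and Grin2c at 0.486 ± 0.0849 CPM per kb. The order was the same in the Cre crushed libraries, from Grin1 at 41.1 ± 4.24 and Grin2b at 11.7 ± 2.57 CPM per kb down to Grin2c at 0.303 ± 0.094 CPM per kb. In these groups no neighbours in the order overlapped in CPM per kb, although Grin2a and Grin3b lay close together. In the deposited TPM Grin2a and Grin3b overlapped in both Cre groups. In Cre uncrushed animal 10 Grin3b was the higher there, at 13.31 against 12.72. The order rests on the deposited gene lengths, which average 1690 and 1790 bases for Grin3b in Cre uncrushed and crushed libraries. GENCODE M21 lists the longest Grin3b transcript at 3283 bases. For Grin2a the longest M21 transcript, of 14634 bases, is not in the deposited tables. The order with other lengths was not tested. Without Cre, Grin1 was at 27.1 ± 5.44 and 26.9 ± 0.354 CPM per kb in uncrushed and crushed libraries, Grin2b was at 14.2 ± 1.2 and 14 ± 0.283 CPM per kb, and Grin3b was last, at 0.163 ± 0.231 and 0.401 ± 0.371 CPM per kb. Grin2a and Grin3a overlapped in both no-Cre groups, and Grin2c and Grin3b overlapped in the no-Cre crushed libraries.

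**Figure D1:**
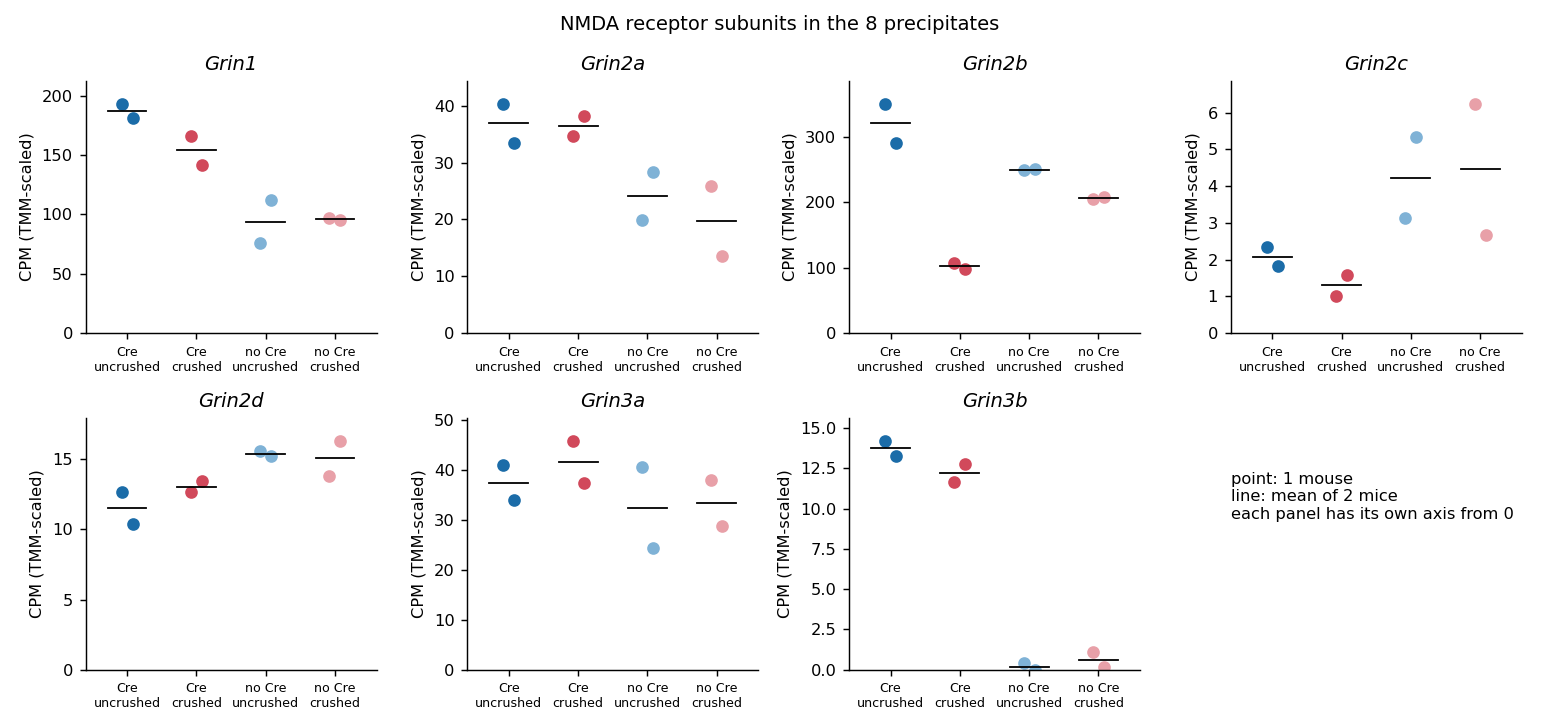
CPM (TMM-scaled) of the 7 NMDA receptor subunit genes in each library, by group, where each point is 1 mouse and each line the mean of 2 mice, with a separate axis from 0 for every gene. Grin3b lies between 11.65 and 14.22 CPM in all 4 Cre libraries and at 1.09 CPM or below in the 4 no-Cre libraries, and Grin2b is lowest in the 2 Cre crushed libraries.

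The comparison of Cre with no-Cre libraries asks which subunit messages are held on the tagged ribosomes above the level that comes down without the tag. Grin3b and Grin1 were higher with Cre both before and after crush. In uncrushed mice 2 of the 7 subunits were called higher and 0 lower at an adjusted p under 0.05, where 42.5% of all genes tested were called (20.6% higher and 21.9% lower). In crushed mice 3 were called higher (Grin1, Grin3b and Grin2a) and 2 lower (Grin2c and Grin2b), where 42.9% of genes were called (21.6% higher and 21.3% lower). Over all libraries 3 were higher and 1, Grin2c, was lower, against 59.9% of genes called (28.7% higher and 31.2% lower). In CPM all 4 Cre libraries lay above all 4 no-Cre libraries for 3 of the 7 subunits and below them for 2. The same held for 25.7% and 25.2% of all genes tested. The median log2 fold change of the 7 was 0.36 in uncrushed and 0.31 in crushed mice, against -0.03 and -0.08 over all genes. In the crushed comparison Grin3b alone was called in every fit that left out 1 library. The count of called subunits fell to 2 without Cre uncrushed animal 3 or 10, to 1 without Cre crushed animal 35 or 52, and to 3 without no-Cre crushed animal 51 or 58. With the deposited gene length of each library in the fit, 2 were called in uncrushed mice (39.8% of genes), 1 in crushed mice (38.7% of genes) and 3 over all libraries (57.3% of genes).

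Grin1 (ENSMUSG00000026959), the obligatory subunit, had 193.22 and 181.49 CPM in Cre uncrushed mice 3 and 10 and 166.15 and 142.09 CPM in Cre crushed animals 35 and 52. It had 75.64 and 111.91 CPM in mice 4 and 6, no-Cre uncrushed and 97.31 and 94.96 CPM in no-Cre crushed animals 51 and 58. In CPM all 4 Cre libraries thus lay above all 4 no-Cre libraries. In the deposited TPM they overlapped, with Cre uncrushed animal 10 at 71.48 and no-Cre crushed animal 51 at 71.86. The log2 fold change was 0.99 ± 0.24 in uncrushed mice, a 1.99-fold difference (edgeR quasi-likelihood test, adjusted p = 0.00746; values after ± for log2 fold changes are standard errors). It was 0.68 ± 0.24 in crushed mice (1.6-fold, adjusted p = 0.0389) and 0.84 ± 0.17 over all libraries (adjusted p = 0.00112). The crushed call was narrow: its adjusted p was 0.0571 and 0.0585 without Cre uncrushed animals 3 and 10, 0.229 and 0.077 without Cre crushed animals 35 and 52, and 0.0862 and 0.081 without no-Cre crushed animals 51 and 58. Without both libraries whose genotype entries contradict their titles, the uncrushed difference was 0.74 and was not called (adjusted p = 0.137). An antisense gene, Grin1os, overlaps Grin1, and whether the authors' counting used strand is not given. Grin1os had at most 3.83 CPM, with 0 counts in both Cre uncrushed libraries. Any exchange of reads between Grin1os and Grin1 was not tested.

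Grin3b (ENSMUSG00000035745), the glycine-binding subunit of motor neurons, had 14.22 and 13.27 CPM in Cre uncrushed mice 3 and 10 (146 and 102 counts) and 11.65 and 12.74 CPM in Cre crushed animals 35 and 52 (184 and 161 counts). In the no-Cre libraries it had 1 count in animal 4, 0 in animal 6, 8 in animal 51 and 1 in animal 58, or 0.39, 0, 1.09 and 0.17 CPM. The 0 in animal 6 allows up to 0.801 CPM. Every Cre library was far above every no-Cre library, and only animal 51 of the latter exceeded 3 counts. The scaled ratio of Cre to no-Cre was 87.1 in uncrushed mice (248 against 1 counts, 95% Clopper-Pearson interval 15.5 to 3460) and 18 in crushed mice (345 against 9 counts, 9.38 to 39.8). These intervals cover counting error only. The quasi-likelihood test in edgeR gave adjusted p = 0.000369 in uncrushed mice, 0.000451 in crushed mice and 7.88e-06 over all libraries. Grin3b is overlapped on the opposite strand by Tmem259. Tmem259 was at 7.8 CPM in animal 4, 17.63 in animal 6, 10.18 in animal 51 and 11.49 CPM in animal 58, all without Cre, and at 18.12 to 21.96 CPM in the Cre libraries. Any exchange of reads between the overlapping genes was not tested.

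Grin1 and Grin3b, the subunits called higher with Cre in both states, have unlike promoters. The 250 bases before each start, from RefSeq on GRCm38.p6, are shown for these genes because both were called. Their log2 fold changes were unlike, at 0.99 for Grin1 and 6.3 for Grin3b in uncrushed mice. Entries were matched for Grin1, Grin2c, Grin2d and Grin3b, and Grin2a, Grin2b and Grin3a were not matched. Capitals mark CACGTG, an E-box, in Grin1 (chr2:25319188-25319437, minus strand) and the letters TATAAA in Grin3b (chr10:79970474-79970723, plus strand).
Grin1: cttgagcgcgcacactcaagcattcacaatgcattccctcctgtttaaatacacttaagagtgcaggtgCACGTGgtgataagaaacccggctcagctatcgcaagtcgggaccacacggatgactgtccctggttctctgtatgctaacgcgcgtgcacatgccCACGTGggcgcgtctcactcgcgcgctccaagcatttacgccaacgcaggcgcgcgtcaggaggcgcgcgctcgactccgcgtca
Grin3b: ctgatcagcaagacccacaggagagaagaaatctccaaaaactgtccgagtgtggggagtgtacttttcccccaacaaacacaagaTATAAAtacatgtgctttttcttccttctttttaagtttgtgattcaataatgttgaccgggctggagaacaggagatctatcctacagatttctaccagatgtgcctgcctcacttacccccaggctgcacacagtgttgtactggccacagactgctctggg
The Grin1 window is 58.8% G and C and holds 27 CG pairs and 2 E-boxes. The Grin3b window is 46% G and C and holds 2 CG pairs and the letters TATAAA once, beginning 164 bases before the start, much farther upstream than a TATA box is known to act. Over all windows the median is 52.4% G and C. Searched on both strands, CACGTG occurs in 6.02% and TATAAA in 12.4% of the 32851 promoter windows of this length. GGGCGG, in 32.7% of windows, and TGACGTCA, in 1.55%, were in neither promoter. A match describes the letters and was not tested as a site.

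Grin2a (ENSMUSG00000059003), the GluN2 subunit with the fastest channel closing, had 40.32 and 33.44 CPM in Cre uncrushed mice 3 and 10 and 34.69 and 38.13 CPM in Cre crushed animals 35 and 52. Without Cre it had 19.89 and 28.31 CPM in uncrushed animals 4 and 6 and 25.79 and 13.49 CPM in crushed animals 51 and 58. In CPM no Cre library overlapped the no-Cre libraries, of which animal 58 was lowest. In the deposited TPM no-Cre crushed animal 51, at 16.83, lay above Cre uncrushed animals 3 and 10, at 16.63 and 12.72. The log2 fold change was 0.60 ± 0.32 in uncrushed mice (edgeR adjusted p = 0.152), 0.88 ± 0.32 in crushed mice (0.0417) and 0.75 ± 0.22 over all libraries (0.0107). With gene length in the fit the value over all libraries was 0.46 and was not called (adjusted p = 0.0652). The deposited length of Grin2a was longer in the Cre libraries, by 0.31 on the log2 scale before and 0.39 after crush. The crushed call was also lost without Cre uncrushed animal 3 (adjusted p = 0.0552) or 10 (0.0571), Cre crushed animal 35 (0.115) or 52 (0.137), or no-Cre crushed animal 58 (0.192).

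Grin2c (ENSMUSG00000020734), the subunit best known from cerebellar granule cells, was scarce everywhere. It had 2.34 and 1.82 CPM in Cre uncrushed mice 3 and 10, 1.01 and 1.58 CPM in Cre crushed animals 35 and 52, 3.12 and 5.34 CPM in mice 4 and 6, no-Cre uncrushed, and 6.24 and 2.67 CPM in no-Cre crushed animals 51 and 58. In CPM all Cre libraries were below all no-Cre libraries, but these levels rest on 8 to 46 counts per library. In the deposited TPM they overlapped, with no-Cre uncrushed animal 4 lowest at 0.4. The log2 fold change of Cre against no Cre was -1.03 ± 0.66 in uncrushed mice (edgeR adjusted p = 0.224), -1.79 ± 0.64 in crushed mice (0.0411) and -1.42 ± 0.46 over all libraries (0.0175). The latter missed the threshold without Cre crushed animal 35 (-1.18, adjusted p = 0.0821), no-Cre uncrushed animal 6 (-1.32, 0.0508) or no-Cre crushed animal 51 (-1.0, 0.113). The crushed call was lost without Cre uncrushed animal 3 (adjusted p = 0.0591) or 10 (0.0585), Cre crushed animal 35 (0.268) or 52 (0.108), or no-Cre crushed animal 51 (0.365). Summed astrocyte markers, given above, were also lower with Cre, and their part in the Grin2c level was not tested.

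Grin2d and Grin3a were called in none of the 3 Cre comparisons. Grin2d (ENSMUSG00000002771), whose channels close slowly and are weakly blocked by magnesium, had 12.66 and 10.41 CPM in Cre uncrushed mice 3 and 10, 12.66 and 13.45 CPM in Cre crushed animals 35 and 52, 15.6 and 15.22 CPM in mice 4 and 6, no-Cre uncrushed, and 13.84 and 16.33 CPM in no-Cre crushed animals 51 and 58. In CPM the no-Cre libraries were all slightly higher, with a log2 difference over all libraries of -0.31 that did not pass (edgeR adjusted p = 0.219). The deposited TPM went the other way in uncrushed mice, at 1.78 and 2.5 in no-Cre animals 4 and 6 against 5.35 and 3.18 in Cre animals 3 and 10. Grin3a (ENSMUSG00000039579), the other glycine-binding subunit, had 40.9 and 33.96 CPM in Cre uncrushed mice 3 and 10, 45.83 and 37.34 CPM in Cre crushed animals 35 and 52, 40.55 and 24.31 CPM in mice 4 and 6, no-Cre uncrushed, and 38 and 28.82 CPM in no-Cre crushed animals 51 and 58. Its groups overlapped, and the log2 difference over all libraries was 0.27 ± 0.20 (adjusted p = 0.255). The GluN3 subunits therefore differed from each other in this readout, with Grin3b low and Grin3a present in precipitates without the tag. The difference between the genes was not itself tested. Genes that overlap in GENCODE M21 include Kdelr1, on the strand opposite to Grin2d, and Ppp3r2, on the same strand as Grin3a. Any exchange of reads with overlapping genes was not tested.

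**Figure D2:**
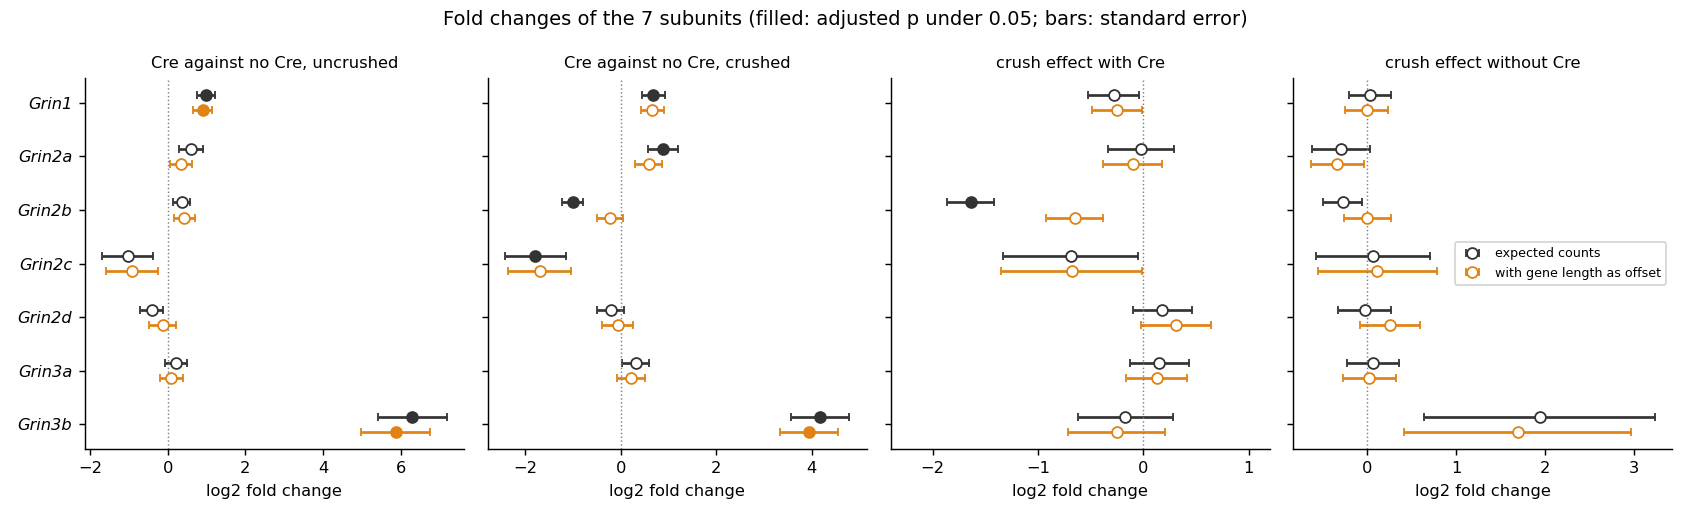
Log2 fold changes of the 7 subunits in 4 comparisons, with bars for the standard error, from the fit of expected counts (black) and from the same fit with the deposited gene length of each library as an offset (orange), where filled points have an adjusted p under 0.05. Grin3b is called in both Cre comparisons by both fits, and Grin2b after crush with Cre is called at -1.64 by the first fit and is at -0.65, not called, in the second.

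Crush with Cre asks what changed on the ribosomes of cholinergic cells after nerve injury. Of the 7 subunits, 1 was called lower and 0 higher, where 0.0723% of genes tested were called (0.0395% higher and 0.0329% lower). The called gene was Grin2b. Without Cre 0 of the 7 were called by the quasi-likelihood test in edgeR, where 0.0723% of genes were called (0.0197% higher and 0.0526% lower), and 0 had an unadjusted p under 0.05. DESeq2 also called 0. The median log2 fold change of the 7 was -0.17 with Cre and 0.03 without, against 0.03 and -0.03 over all genes. In bulk precipitates, fewer cells of a type and less RNA per cell cannot be told apart.

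Grin2b (ENSMUSG00000030209), which makes the GluN2B subunit of slowly closing, CaMKII-binding receptors, had 350.99 and 291.42 CPM in Cre uncrushed mice 3 and 10 and 107.73 and 97.71 CPM in Cre crushed animals 35 and 52. Without Cre it had 249.94 and 250.8 CPM in uncrushed animals 4 and 6 and 205.2 and 208.24 CPM in crushed animals 51 and 58. The Cre crushed libraries were the lowest of all and overlapped no other group, while the Cre uncrushed libraries were the highest. Counts fell by 1.64 ± 0.22 on the log2 scale after crush with Cre, a 3.13-fold difference of the group means (edgeR quasi-likelihood test, adjusted p = 0.0213). Without Cre the change was -0.28 ± 0.22 (adjusted p = 0.611), with crushed libraries below uncrushed ones there too. The difference between the crush effects was -1.37 ± 0.31 and was not called by edgeR (adjusted p = 0.77), which called 0 genes for it, 905 at an unadjusted p under 0.05. DESeq2 called 15 genes there, Grin2b among them (-1.34, adjusted p = 0.0128). Grin2b was also lower with Cre than without in crushed mice (-1.01 ± 0.22, adjusted p = 0.00422) but not in uncrushed mice (0.36 ± 0.22, adjusted p = 0.204). In GENCODE M21, Gm14329, Gm22892, Gm14330 and Gm26653 overlap Grin2b on the opposite strand. Any exchange of reads between them and Grin2b was not tested, and the strand setting of the counting is not given.

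Markers of some other cell types differed with crush in the Cre libraries as well. From Cre uncrushed to Cre crushed, the summed level went from 190 to 207 up to 342 to 488 CPM for astrocytes (6 genes), from 701 to 866 up to 1080 to 1790 CPM for oligodendrocytes (6 genes), from 2.21 to 2.73 up to 6.96 to 9.02 CPM for their precursors (2 genes), from 7.79 to 8.07 up to 13 to 16.9 CPM for microglia (6 genes) and from 6.53 to 7.03 up to 13 to 18.1 CPM for endothelium (4 genes). None of these sums overlapped, while of all single genes tested 50% did not overlap in this comparison. The median log2 changes of the lists were 0.96, 0.73, 1.59, 1.6 and 1.16, against 0.03 over all genes, and edgeR called 0 of their 24 genes. An unadjusted p under 0.05 was found for 14 of the 24, where 9.34% of all genes tested had one, and DESeq2 called 6 (Slc1a2, Aqp4, Pdgfra, Flt1, Mobp and Mbp). The 7 motor neuron markers had a median of -0.24, with 0 under that unadjusted p and 0 called by either tool. Other lists did not all rise. Sums overlapped for meningeal fibroblasts (21.4 to 23.2 and 21.5 to 23.9 CPM), interneurons (181 to 210 and 197 to 271) and sensory ganglion neurons (212 to 358 and 343 to 440). Schwann cell sums went from 292 to 326 up to 354 to 461 CPM. Pan-neuronal sums went from 14300 to 16400 down to 12200 to 13600 CPM. The astrocyte, oligodendrocyte, precursor, microglia and endothelial sums in Cre crushed libraries were all below those in every no-Cre library. Schwann cell sums in Cre crushed libraries overlapped those in no-Cre crushed libraries, at 320 to 748 CPM. The part of these cells in the Grin2b change was not tested.

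The crush call for Grin2b did not hold when any of the 4 Cre libraries was left out, which leaves 1 mouse in a group. The log2 fold change was then -1.50 without animal 3 (edgeR adjusted p = 0.221), -1.78 without animal 10 (0.0775), -1.72 without animal 35 (0.231) and -1.57 without animal 52 (0.383). Without animal 35 all remaining Cre mice were 8 or 9 weeks old. The lower Cre level in crushed mice was likewise -1.04 without animal 35 (adjusted p = 0.0531) and -0.90 without animal 52 (0.0677).

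The deposited tables also give a length for each gene in each library, in bases, which RSEM writes as the mean of the gene's transcript lengths weighted by their estimated abundance. The length of Grin2b differed with crush. It was 16223 and 19198 bases in Cre uncrushed animals 3 and 10 and 7973 and 9894 bases in Cre crushed animals 35 and 52. Without Cre it was 18745 and 16773 bases in uncrushed animals 4 and 6 and 14467 and 15069 bases in crushed animals 51 and 58. The Cre crushed lengths were the shortest, and crushed and uncrushed libraries did not overlap with or without Cre. The ratio of crushed to uncrushed mean length was 0.504 with Cre, or -0.99 on the log2 scale, and -0.27 on that scale without Cre.

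Per kilobase of these lengths the Grin2b levels moved closer together. They were 21.6 and 15.2 CPM per kb in Cre uncrushed animals 3 and 10, 13.5 and 9.87 in Cre crushed animals 35 and 52, 13.3 and 15 in no-Cre uncrushed animals 4 and 6, and 14.2 and 13.8 CPM per kb in no-Cre crushed animals 51 and 58. Cre crushed libraries were still below Cre uncrushed ones, but animal 35 lay within the no-Cre range. The deposited TPM values, in which the authors scaled for length and depth, do not include the TMM factor. That factor was 1.07 and 0.937 in Cre uncrushed animals 3 and 10 and 1.373 and 1.348 in Cre crushed animals 35 and 52. The TPM values were 39.53 and 21.89 in Cre uncrushed animals 3 and 10. They were 31.82 and 23.69 in Cre crushed animals 35 and 52, and the groups overlapped. The part of the TMM factor in this overlap was not tested. With gene length as an offset in the edgeR fit, the crush effect with Cre was -0.65 ± 0.27 and was not called (adjusted p = 0.542), where 0.0658% of genes were called. The Cre difference in crushed mice became -0.22 ± 0.27 (adjusted p = 0.536). This fit was added after the lengths had been seen. Which transcripts the reads came from was not tested, since transcript tables were not used here.

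**Figure D3:**
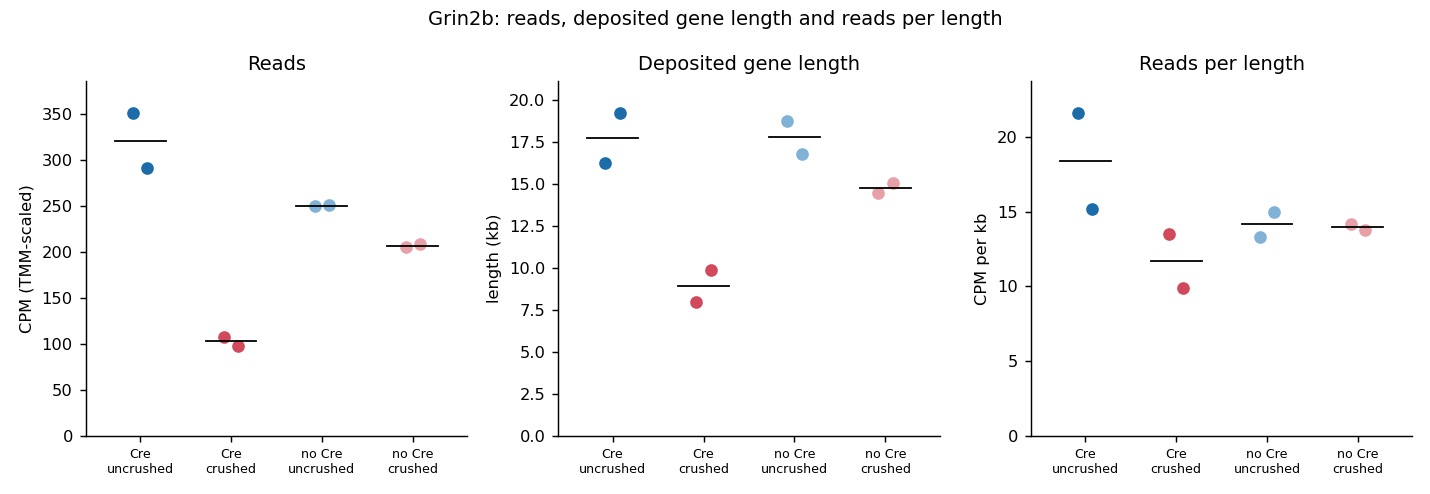
Grin2b in each library as CPM (TMM-scaled), deposited gene length in kb and CPM per kb, with 1 point per mouse and a line at the mean of 2 mice, by group. The Cre crushed libraries are lowest in CPM and in length, and in the right panel they come closer to the other groups.

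GENCODE M21 lists transcripts of Grin2b that differ mainly behind the coding sequence. Grin2b-201 is 24060 bases long and Grin2b-202 is 7484 bases long. Both have 4446 coding bases, and their 3′ untranslated regions span 18868 and 2275 bases. Both identifiers are among the 5 transcripts the deposited tables list for Grin2b, and no other annotated transcript of the gene is longer than 2461 bases. If the authors' transcripts had these lengths, the deposited gene length sets a lower limit on the estimated share of the longest transcript. That limit was 52.7 and 70.7% in Cre uncrushed animals 3 and 10, 3 and 14.5% in Cre crushed animals 35 and 52, 67.9 and 56% in no-Cre uncrushed animals 4 and 6, and 42.1 and 45.8% in no-Cre crushed animals 51 and 58. That the lengths are the same was not tested for these transcripts. No source used here names the authors' annotation, and M21 lengths matched 18255 of 24052 genes with 1 transcript (75.9%).

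A fall of the length by this much was rare among genes with several transcripts. Of 4712 genes with several transcripts and at least 100 counts in each Cre library, 1 (0.0212%), Grin2b itself, had a length ratio this low after crush with Cre. In either direction 0.0424% had a ratio as far from 1 or farther. How far a length can move depends on a gene's annotated transcripts, and the genes were not matched for that. That the lengths of a gene did not overlap between Cre crushed and uncrushed libraries was common, at 2009 of these genes (42.6%). The median log2 ratio was 0 and the 5th and 95th percentiles were -0.27 and 0.26. These lengths are estimates without an error of their own, and the ratio was not tested. The other 6 subunits had log2 length ratios between -0.13 (Grin2d) and 0.10 (Grin2a) with Cre.

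**Figure D4:**
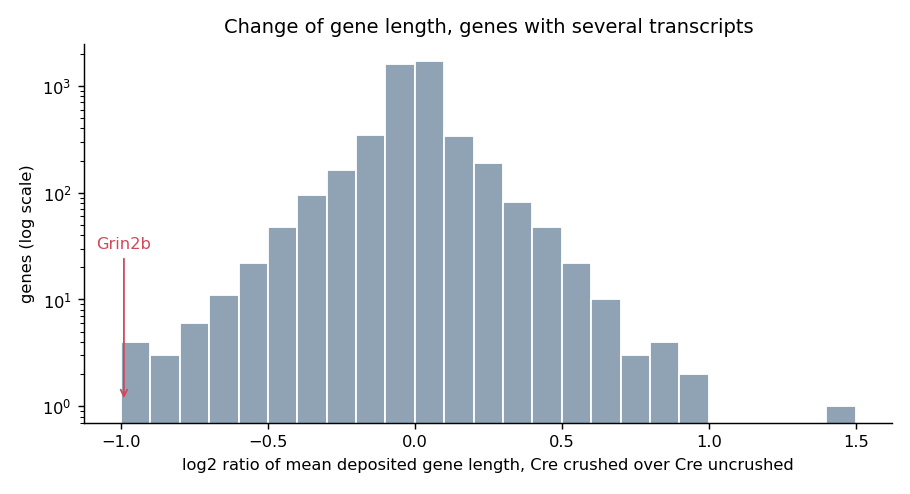
Number of genes (log scale) by the log2 ratio of mean deposited gene length in Cre crushed over Cre uncrushed libraries, for 4712 genes with several transcripts and at least 100 counts in each Cre library. Grin2b, marked by the arrow at -0.99, is at the low end of the distribution.

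The remaining subunits did not pass the test for crush. With Cre, the log2 changes in the edgeR fit were -0.28 ± 0.24 for Grin1 (adjusted p = 0.795), -0.02 ± 0.31 for Grin2a, -0.69 ± 0.64 for Grin2c, 0.18 ± 0.28 for Grin2d, 0.15 ± 0.28 for Grin3a and -0.17 ± 0.45 for Grin3b. All of these had adjusted p of 0.795 or above. In Grin1, Grin2c and Grin3b, as in Grin2b, both Cre crushed libraries lay below both Cre uncrushed ones, by less than the error of the change for Grin3b. With 2 mice a group this was common: of all genes tested 23.9% were lower without overlap and 50% did not overlap in either direction, so nothing is read from it. The standard errors leave room for changes of these genes that 2 mice per group could not show. Without Cre the changes ran from -0.30 ± 0.33 for Grin2a to 0.06 for Grin2c and Grin3a, apart from Grin3b at 1.94 ± 1.3 on 1 against 9 counts (adjusted p = 0.55).

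The mix of GluN2 subunits was described as the share of each in the summed Grin2a to Grin2d level per kb. Grin2b made up 63.8 and 57.8% in Cre uncrushed animals 3 and 10, 55.2 and 45.4% in Cre crushed animals 35 and 52, 58.8 and 54.9% in no-Cre uncrushed animals 4 and 6, and 57.3 and 60.1% in no-Cre crushed animals 51 and 58. By this measure it was thus the largest GluN2 share in every library, lowest in Cre crushed animal 52. The shares depend on the transcripts counted. Grin2b-201, with its 3′ untranslated region of 18868 bases, is in the deposited tables. Grin2a-206, which M21 lists with such a region of 9932 bases, is not. What this omission does to the shares was not tested. Grin2a took 26.1 and 32.4% in Cre uncrushed and 31.1 and 38.9% in Cre crushed libraries, and Grin2d 8.4 and 8.2% against 12.7 and 14%. Grin2c took 1 to 1.7% in the Cre libraries and 2.7 to 5.6% in the others. The Grin2b share was lower by 2.2 percentage points with Cre than without, which did not pass (exact permutation test within crush state, two-sided, p = 0.6667, 36 permutations, smallest possible p 0.0556). Crushed minus uncrushed with Cre was -10.5 points, from 60.8 ± 4.3 to 50.3 ± 6.9%, where the pooled SD of the Cre groups was 5.7 points. It was left as a description, since an exact permutation test of 2 against 2 cannot reach a p below 0.3333 and no other test was run. Without the length correction the shares of CPM were 86.4 and 86.5% in Cre uncrushed and 69 and 64.8% in Cre crushed libraries, a difference of -19.5 points. Relative to Grin1 per kb, Grin2b was 0.428 and 0.317 in Cre uncrushed, 0.306 and 0.259 in Cre crushed, 0.572 and 0.482 in no-Cre uncrushed, and 0.523 and 0.519 in no-Cre crushed libraries. Every Cre library was below every no-Cre library in that ratio. Its denominator, Grin1 per kb, was at 38.1 to 50.6 with Cre and 23.3 to 31 without. Grin2b per kb overlapped, at 9.87 to 21.6 with Cre and 13.3 to 15 without. How often ratios of other genes separate in this way was not tested.

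**Figure D5:**
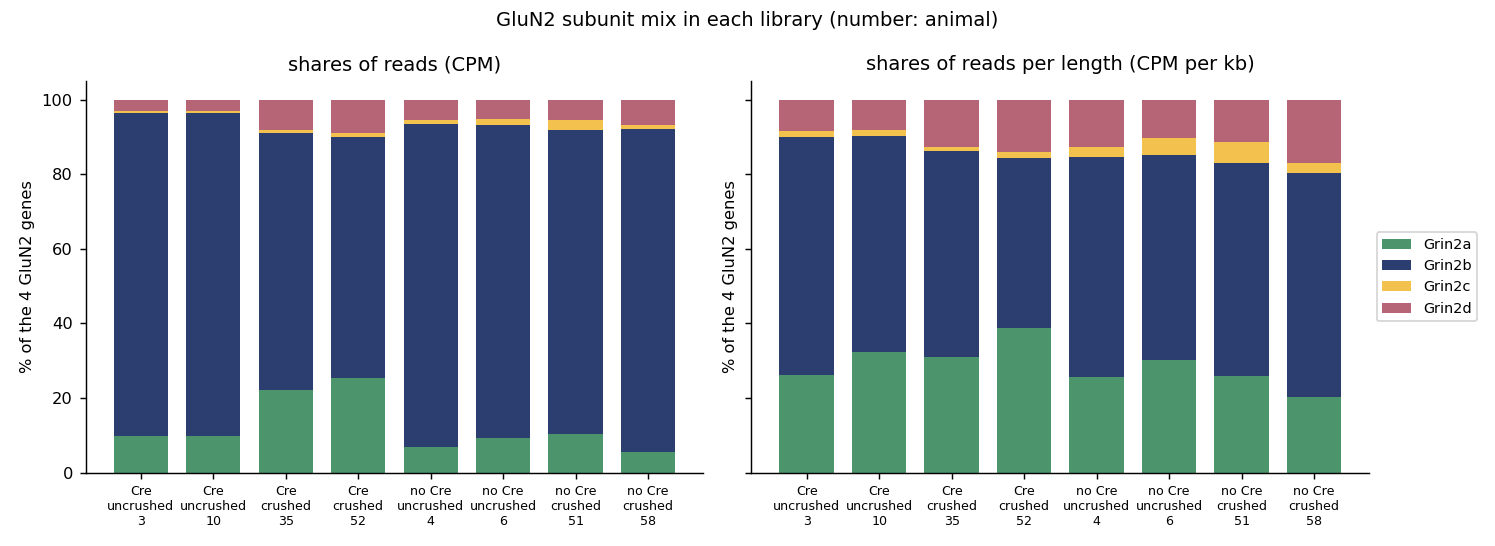
Share of Grin2a, Grin2b, Grin2c and Grin2d in their sum in each of the 8 libraries, in percent, from CPM (left) and from CPM per kb of deposited gene length (right). Grin2b is the largest share throughout, and the drop of its share in Cre crushed libraries is -19.5 percentage points on the left and -10.5 on the right.

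For each subunit the tested genes with the most similar pattern were taken as those with the smallest root mean square difference of centred log2 CPM over the 8 libraries. For Grin1 these were Anks1 (0.09), Pcsk2 (0.092) and Glg1 (0.099), against a spread of Grin1 itself of 0.463. For Grin3b they were Htr2a, a serotonin receptor, (0.486), Glyat (0.533) and Prr32 (0.536), against a spread of 2.396. For Grin2b they were Oprk1, the kappa opioid receptor, (0.22), Pura, a nucleic acid-binding protein, (0.231) and Dnajb14, a chaperone of the endoplasmic reticulum, (0.284), against a spread of 0.614. Oprk1 was at 11.6 CPM in Cre uncrushed and 4.09 CPM in Cre crushed libraries, Pura at 736 and 344 CPM and Dnajb14 at 275 and 145 CPM. None of these passed the edgeR test for crush with Cre (adjusted p 0.178, 0.153 and 0.178). Their log2 changes were -1.51, -1.10 and -0.93, and with gene length in the fit they were -1.34, -1.09 and -0.91, against -1.64 and -0.65 for Grin2b. Since these genes were chosen for likeness to Grin2b in the same 8 libraries, their fall with crush follows from the choice and is no separate result. Grin2a was most like Plxna1 (0.104), Grin2c like Brip1 (0.169), Grin2d like Vps37a (0.091) and Grin3a like Rasgef1a (0.095).

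The partners of the receptor showed 0 calls for crush in any of 7 lists, with or without Cre, by the quasi-likelihood test in edgeR. With Cre the list medians of the log2 change lay between -0.13 and 0.25. Of the 79 partner genes tested, 7 with Cre (8.86%) and 9 without (11.4%) had an unadjusted p under 0.05, close to the 9.34% and 12.8% of all genes tested, and DESeq2 called 2 with Cre (Slc1a2 and Slc6a9) and 0 without. In the counts of partners called with Cre that follow, the shares over all genes are those given above, 20.6% higher and 21.9% lower in uncrushed mice and 21.6% higher and 21.3% lower in crushed mice. Counts of a few genes near these shares say nothing particular of a list.

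Among the other ionotropic glutamate receptors, 2 of 11 genes were higher with Cre in uncrushed mice and 3 lower, near the shares over all genes, and the family median was -0.43 against -0.03 over all genes. Gria3, an AMPA receptor subunit, was at 187 against 84.2 CPM (1.15 ± 0.25, adjusted p = 0.00444) and Gria4 at 114 against 54 CPM (1.08 ± 0.28, 0.00964), while Gria1 was at 29.5 against 50.9 CPM (-0.79 ± 0.25, 0.0235). Gria2, which makes AMPA receptors impermeable to calcium, was at 100 against 112 CPM (adjusted p = 0.591). In crushed mice 2 were higher and 3 lower. Of 6 metabotropic receptors tested, 0 were higher and 1 lower in uncrushed mice and 2 higher and 3 lower in crushed mice. Grm5, which couples to the same scaffolds, was at 11.8 against 31.2 CPM in uncrushed mice (-1.41 ± 0.31, adjusted p = 0.00467).

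Among scaffold, signalling and trafficking partners, calls in both directions were made with Cre. Of 15 scaffold proteins of the postsynaptic density, 1 was higher and 4 lower in uncrushed mice, and 2 and 3 in crushed mice, against 20.6 and 21.9%, and 21.6 and 21.3%, of all genes. Shank1 was at 155 against 341 CPM in uncrushed mice (-1.14 ± 0.28, edgeR adjusted p = 0.00829), and Dlg4, which makes PSD-95, was at 69.5 against 43 CPM (0.69 ± 0.26, 0.0521). Of 16 kinases, phosphatases and other signalling partners, 5 were higher and 4 lower in uncrushed mice, and 7 and 2 in crushed mice. Camk2g, a subunit of the kinase that binds GluN2B, was at 186 against 75.4 CPM in uncrushed mice (1.3 ± 0.21, adjusted p = 0.000903). Ppp3ca, a catalytic subunit of calcineurin, was at 381 against 200 CPM (0.93 ± 0.24, 0.0098). Rasgrf1 (0.29 ± 0.31, 0.472) and Camk2b (0.24 ± 0.21, 0.371) were not called there, and Camk2b was called higher in crushed mice. Camk2a, another subunit of the kinase of Camk2g, was called lower with Cre in uncrushed and in crushed mice. Of 13 trafficking and clustering partners, 1 was higher and 2 lower in uncrushed mice, and 4 and 2 in crushed mice, among them Lin7c at 38.1 against 66 CPM before crush (-0.80 ± 0.25, adjusted p = 0.0233).

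Most calls among genes that supply or remove the receptor's ligands were lower with Cre. Of 10 genes of glycine and D-serine handling tested, 0 were higher and 7 lower in uncrushed mice, and 0 and 6 in crushed mice, where 21.9% and 21.3% of all genes were lower. The list median was -2.01 and -1.47, against -0.03 and -0.08 over all genes. Slc6a5, the neuronal glycine transporter GlyT2, was at 88.8 against 390 CPM in uncrushed mice (-2.13 ± 0.28, edgeR adjusted p = 0.00028), and Slc6a9, the glial transporter GlyT1, at 6.4 against 52.9 CPM (-3.04 ± 0.28, 5.37e-05). Of 8 genes of glutamate transport and metabolism, 1 was higher and 5 lower in uncrushed mice, and 1 and 4 in crushed mice, beside the same shares of all genes. Slc1a2, the astrocytic glutamate transporter, was at 149 against 1470 CPM (-3.30 ± 0.36, adjusted p = 0.000101). The gene that was higher was Slc1a1, the neuronal glutamate transporter, named here after its value was seen. Summed astrocyte and interneuron markers moved the same way as these 2 lists, and their part in these values was not tested. Slc1a2, Slc1a3, Slc6a5 and Slc17a6 stand in a marker list as well.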

How the data were processed

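Ribosome-associated mRNA of 8 mouse spinal cords was analysed from the deposited gene tables, which the authors made with Bowtie2 2.2.0 and RSEM 1.2.12, per the submitters' processing notes. Build, annotation and strand setting are not given in the sources. The deposited expected counts are RSEM estimates of reads per gene, unscaled, and were rounded. The deposited TPM values are scaled by the authors for length and depth. The deposited gene length, in bases and of the type other, is specific to each library. Symbols were matched for 37607 of 38924 identifiers (96.6%).

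Counts were filtered with filterByExpr of edgeR 4.0.16 (minimum count 10, minimum total 15), scaled by TMM and fitted with 1 mean per group in R 4.3.3 (4 residual degrees of freedom). The Cre comparison over all libraries came from a separate fit with Cre and crush as terms, for which the spread was estimated anew. The quasi-likelihood test was two-sided, with Benjamini-Hochberg adjustment over 15208 genes and a threshold of 0.05. Standard errors were taken from the fold change and its F statistic. The labels give separate animal numbers but nothing else on how replicates were raised, so p-values measure the spread between these samples, which may be technical in part. Log2 CPM for pattern likeness used a prior count of 2. The floor is 3 counts per library, and ratios of counts have 95% exact intervals.

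The alternatives were DESeq2 1.42.0, its size factors in edgeR, library-size scaling, no filter, a fit of the compared groups only, grouping by genotype entry, omission of the 2 libraries with contradictory entries or of each library in turn, and an age covariate. Gene length as an offset was added after seeing the data. The 7 members were all named, with up to 4 genes per partner list chosen by mean CPM. Members and lists were chosen with earlier results of these data known. The fit was tested on simulated data. Marker lists also covered pan-neuronal, oligodendrocyte and precursor, microglia, endothelial, Schwann cell, sensory ganglion neuron and meningeal fibroblast genes. Of 52 marker genes tested, edgeR called 0 for crush with Cre (15 at an unadjusted p under 0.05, and 6 by DESeq2), and the median log2 changes of the lists ran from -0.48 (meningeal fibroblast) to 1.6 (microglia).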

Additional observations from a re-analysis of the deposited data

How the results depend on the processing

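No paired analysis was possible because the groups share none of their animal numbers. The Grin2b crush effect with Cre kept its direction under every alternative run. It stayed called, as 1 subunit, with DESeq2, its size factors, no filter and a fit of the Cre groups only. It was not called (0 subunits) with library-size scaling (-1.21), grouping by the genotype entry (-1.40), without both libraries with contradictory entries (-1.50), with age as a covariate (-1.73) or with gene length as an offset (-0.65). Leaving out each library gave -1.78 to -1.50 and 0 to 1 called subunits. The difference of the crush effects had 1 called subunit with DESeq2. For Cre against no Cre in uncrushed mice the 2 called became 4 with library-size scaling, 0 with grouping by the genotype entry, which reversed Grin1 to -0.25 and Grin3b to -0.04, and 1 without both contradictory libraries. In crushed mice the 5 called became 1 with library-size scaling, 0 with the genotype grouping, 2 with age and 1 with gene length, and 1 to 5 when a library was left out. Over all libraries the 4 called became 0 with the genotype grouping and 3 to 4 when a library was left out. The Grin2b share difference between Cre and no Cre, -2.2 points per kb, was -8 points without length, and that of crush, -10.5 points per kb, was -19.5 points without length. Per kb, leaving out a library gave -4.7 to 0.2 and -15.4 to -5.7 points. The cause was not tested.

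Library-size scaling moved the median of all genes by 0.44 for crush with Cre, 0.97 for crush without Cre, 0.68 for Cre in uncrushed and 0.14 in crushed mice, and the called genes in uncrushed mice then split into 4753 higher and 1463 lower against 3137 and 3331. Over all genes, the 11 called for crush with Cre were 126 in the fit of Cre groups only, 159 with DESeq2, 281 without a filter, 3 with age, 5 without both contradictory libraries and 0 with the genotype grouping. The 11 called for crush without Cre ranged from 0 to 1204 (library-size scaling). The 6468 genes called for Cre in uncrushed mice were 3299 without both contradictory libraries and 0 with the genotype grouping, and the 6521 in crushed mice were 2758 with age and 2733 without Cre crushed animal 35. Depth limits Grin3b and Grin2c, with as few as 0 and 8 counts in a library.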
